A study of Drosophila eugracilis and Drosophila pseudoobscura and Drosophila bifasciata with 4 samples.

Results

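The assembly of *Drosophila bifasciata*, a fly of the *obscura* group that lacks *yb*, holds chromosome-scale sequences whose names begin with CM and contigs whose names begin with WIOZ, the prefix of contigs outside those chromosome records. Transcription on the WIOZ contigs was examined in 1 polyA-selected RNA library from whole ovaries. All 152 sequences of the library whose name begins with WIOZ were taken, and the 5 CM sequences served for comparison, which makes 157 sequences with an alignment. The flies were wild type females on standard food, of the strain labelled Jozankei, Hokaidou, given as 2 to 7 days old in the age label and as 3 to 7 days old in the protocol. The methods give the stock of *D. bifasciata* under a different identifier, and the description label of the sample names *D. eugracilis*, whereas its title, organism field and sequence names belong to *D. bifasciata*. Whole ovaries mix germline and somatic cells, so fewer cells of a type and less RNA per cell cannot be told apart. No replicate library exists, and every interval given is an exact 95% interval of counting error only, while the limit beside a count of 0 is the share that 3 counts would give, since PCR copies and both mates of a fragment were counted as separate alignments. No gene annotation of *D. bifasciata* was used here, so contigs are described by their reads and named by their identifiers, and ovary marker genes were not looked up.

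Contigs that an assembly does not join to a chromosome often come from repeat-rich sequence, such as the heterochromatin around centromeres, where the same stretch occurs many times and cannot be ordered. Arrays of repeated genes and transposon insertions lie there in *Drosophila*, and so do the piRNA clusters, loci that carry transposon remnants and give rise to the small RNAs that silence transposons in the ovary. In *D. melanogaster* some of these clusters are transcribed from 1 strand and spliced like protein-coding genes, while others are transcribed from both strands. Reads that fit several places were not kept by the authors, so a repeated stretch is seen only where its copies differ.

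The library held 13983030 alignments from 6988973 complete read pairs. The WIOZ contigs received 387475 of them, 2.77% (2.76% to 2.78%). Up to the furthest aligned base of each contig they cover 6746 kb, and their level was 4.11 alignments per 1000000 of the library and per kb (CPM per kb), against 5.27 CPM per kb on the CM sequences, whose own levels ran from 3.39 on CM019042.1 to 9.82 on CM019045.1. The mean level of the WIOZ contigs thus lay inside the range of the 5 CM sequences.

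The reads were concentrated on few contigs. The median contig had 26 alignments (middle 50% 8 to 191.5) and a level of 0.0877 CPM per kb, and the lowest had 2. The contig with most alignments held 22.9% of all WIOZ alignments, the first 5 held 73.4% and the first 9 held 90.3%. The remaining 143 contigs had 37655 alignments and 0.432 CPM per kb, and 98 contigs with fewer than 100 alignments each held 1836 together. Only 18 of the 152 contigs exceeded the level of the lowest CM sequence, which is a mean over 48029 kb. On a like scale, the median window of 10 kb had 0.286 CPM on WIOZ contigs and 0.429 CPM on CM sequences. Both medians stand for only a few alignments and can hardly show a gap. At the 90th percentile the windows had 5.15 CPM and 125.5 CPM. The 9 contigs with at least 10000 alignments are called the heavily read contigs here. The last of them, WIOZ01000153.1, had 11031 alignments, and the first contig outside, WIOZ01000214.1, had 6982.

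Each sequence was cut into tiles of 500 nt, and an alignment was counted in the tile of its 5' end on the RNA strand. A tile was called transcribed above 1 alignment per kb and per 1000000 (RPKM), which took 7 alignments in this library. On the WIOZ contigs 667 of 13565 tiles were transcribed, 4.92% (4.56% to 5.29%), where 13.5% of the tiles of all sequences were. On the CM sequences the share was 13.8% (13.7% to 13.9%), and none of the 5 lay below 9.22%. The WIOZ share was therefore lower than on every CM sequence, by more than its counting interval. Tiles with any alignment made up 14.5% of the WIOZ tiles and 21.3% of the CM tiles. No tile was transcribed on 63 contigs, and 27 contigs had at least 10 transcribed tiles.

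Among transcribed tiles, the typical WIOZ tile was weaker, and the strong end of the pooled range was not. The median level was 3.86 RPKM on WIOZ contigs and 14.7 RPKM on CM sequences, whereas the 90th percentile was 72.9 RPKM and 62.5 RPKM. That percentile was 383 RPKM on the heavily read contigs and 18.2 RPKM on the other 143, below the CM value. Windows of 10 kb, unlike the pooled transcribed tiles, were also weaker on WIOZ contigs at the 90th percentile, although fewer of those counted were empty. Of 593 WIOZ windows 74.0% (70.3% to 77.5%) stayed under 1 CPM, against 60.3% of 18432 CM windows, but windows without any alignment were fewer, at 25.6% (22.2% to 29.3%) against 30.1%. Windows ended at the furthest aligned base, and contigs that reach under 10 kb or had no alignment gave none. Unread ends were thus left out on many short contigs but on only 5 CM sequences. The shares of empty windows are therefore not on equal terms. The 90th percentile of the windows was 5.15 CPM against 125.5 CPM. Windows at 500 CPM or more were about as frequent on both, at 1.52% (0.696% to 2.86%) and 1.62%.

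**Figure D1:**
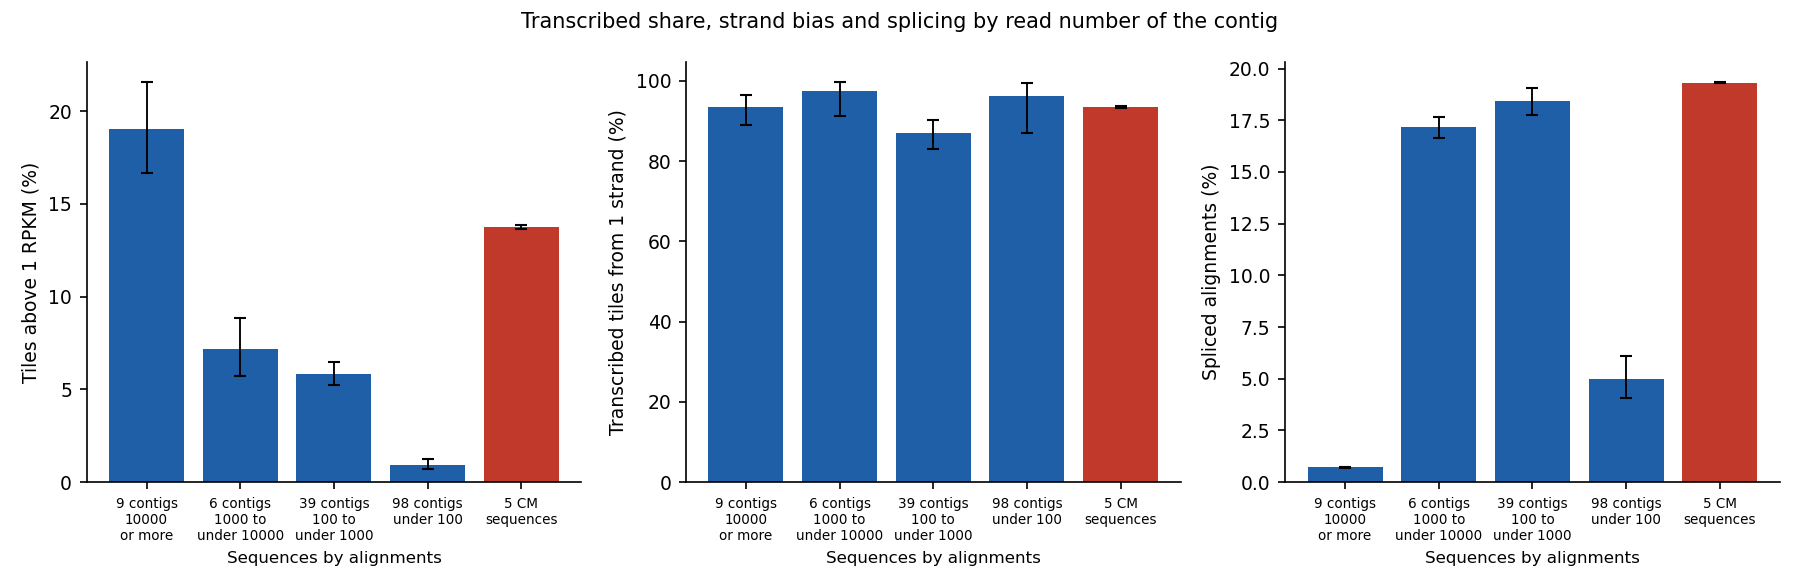
Share of 500-nt tiles above 1 RPKM, share of those tiles with at least 90% of alignments from 1 strand, and share of spliced alignments (all in percent), for WIOZ contigs grouped by their number of alignments (blue) and for the CM sequences (red). Bars start at 0 and error bars are exact 95% intervals of counting error. The 9 contigs with at least 10000 alignments had a spliced share of 0.714%, the next 2 groups 17.2% and 18.4%, and the CM sequences 19.3%.

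The heavily read contigs had few spliced alignments. An alignment with more than 1 aligned block was called spliced, which held for 8904 WIOZ alignments, 2.30% (2.25% to 2.35%), and for 19.3% of CM alignments, with a range of 16.4% to 21.4% over the 5 CM sequences. The 9 heavily read contigs had 349820 alignments and a spliced share of 0.714% (0.686% to 0.743%). The other 143 contigs had 17.0% (16.6% to 17.4%) in sum, within the range of the CM sequences, although single ones among them were as low, such as WIOZ01000130.1 with 0.841% of 3328. The sum leans on WIOZ01000214.1, which gave 2120 of the 6406 spliced alignments of these 143 contigs and 6982 of their 37655 alignments. Contigs with 1000 or more but under 10000 alignments had 17.2%, and this contig gave 2120 of their 3827 spliced alignments. Those with 100 or more but under 1000 had 18.4%, and those with fewer had 5.01% (4.06% to 6.11%). The grouping was made after the values were seen.

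**Figure D2:**
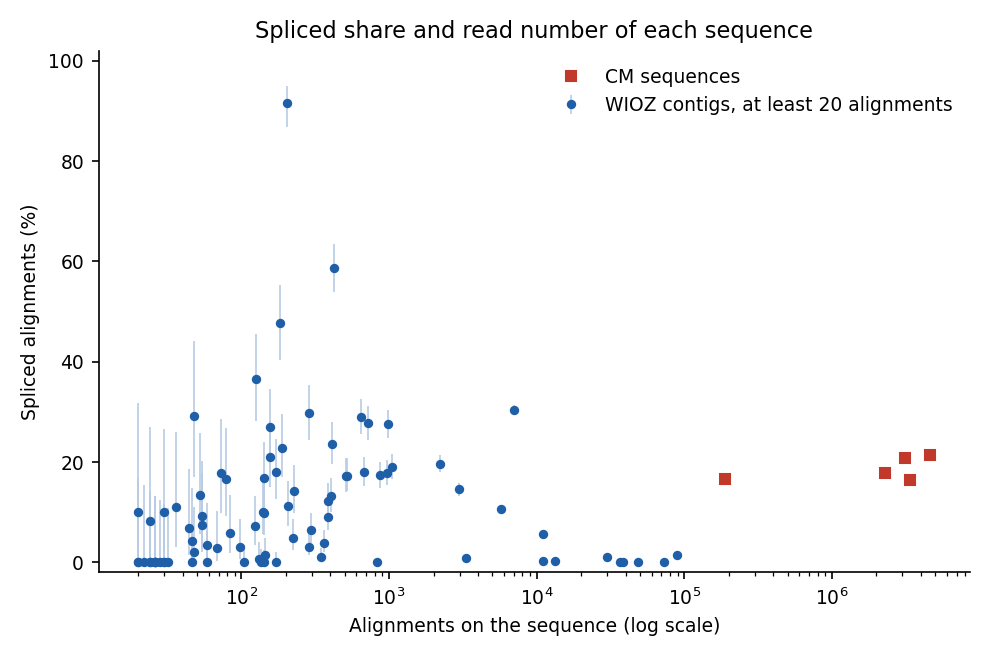
Share of spliced alignments (percent) against the number of alignments (log scale) for each WIOZ contig with at least 20 alignments (blue circles, with exact 95% intervals) and each CM sequence (red squares). All 9 contigs beyond 10000 alignments lie at or below 5.70%, below the CM sequences at 16.4% to 21.4%, while contigs with fewer alignments spread from 0 to 91.6%.

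No contig with at least 1000 alignments was without a spliced alignment. Of the 15 such contigs, 7 had a spliced share under 1% and 12 had one below the lowest CM sequence. The 5 lowest were WIOZ01000114.1 with 6 spliced of 36528 alignments (0.0164%), WIOZ01000109.1 with 7 of 38280 (0.0183%), WIOZ01000127.1 with 27 of 48216 (0.0560%), WIOZ01000156.1 with 51 of 72560 (0.0703%) and WIOZ01000154.1 with 35 of 13342 (0.262%). On these contigs nearly every alignment was a single block. The 5 highest were WIOZ01000214.1 with 30.4%, WIOZ01000212.1 with 19.6%, WIOZ01000182.1 with 19.0%, WIOZ01000149.1 with 14.5% and WIOZ01000132.1 with 10.6%. Among contigs with at least 100 alignments, 5 had 0 spliced ones. WIOZ01000205.1 had 0 of 828, which allows a share of up to 0.362%. WIOZ01000190.1 had 172 alignments, WIOZ01000158.1 had 142, WIOZ01000038.1 had 136 and WIOZ01000144.1 had 104, which allow shares of up to 1.74%, 2.11%, 2.21% and 2.88%. All 5 limits lie below the lowest CM share. In all, 82 contigs had no spliced alignment, and they held 2265 alignments together.

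Abundant unspliced tiles also occur on the chromosomes. Among tiles with at least 100 alignments, 113 of 170 WIOZ tiles, 66.5% (58.8% to 73.5%), had under 1% spliced alignments, where 44.9% of such tiles of all sequences did. Among tiles with at least 5000 alignments, all 10 WIOZ tiles did, an interval of 69.2% to 100%, and so did 105 of 263 CM tiles, 39.9% (34.0% to 46.1%). In the pooled tiles with many reads, the share under 1% spliced was thus higher on WIOZ contigs. All 10 tiles with at least 5000 alignments lay on heavily read contigs, and the shares were not computed without those contigs.

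Most WIOZ reads lay in a few single tiles. The 10 leading of 13565 WIOZ tiles held 65.5% of all WIOZ alignments. The 10 leading of 368686 CM tiles held 5.18% of the CM alignments, but they are a smaller part of their tiles. On CM019045.1, with 2728 tiles, the 10 leading ones held 45.4%. The strongest WIOZ tile was that at 9001 to 9500 of WIOZ01000156.1, with 69343 alignments (9918 RPKM), which ranks 4 among all tiles of the library. It carried 95.6% of the alignments of its contig, 98.9% of them from the plus strand and 3 of them spliced. Only 1944 distinct alignments (2.80%) made up the 69343, and the most frequent was seen 2542 times. The part of PCR copies in this count was not tested.

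The second was the tile at 15501 to 16000 of WIOZ01000157.1, with 49108 alignments (7024 RPKM) from 884 distinct ones, of which the most frequent was seen 7917 times. The next tiles, on WIOZ01000109.1 at 5001 to 5500 and on WIOZ01000114.1 at 3501 to 4000, had 36104 and 35159 alignments, which were 94.3% and 96.3% of their contigs. Their distinct alignments were more numerous, at 4622 and 2510. The remaining 6 had between 5255 and 15890 alignments and lay on WIOZ01000127.1, WIOZ01000126.1, WIOZ01000154.1 and WIOZ01000157.1. All 10 had at least 98.9% of their alignments from 1 strand, and none had more than 0.171% spliced.

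WIOZ01000109.1 was the densest contig, at 485.6 CPM per kb (480.7 to 490.5). Every one of its 38280 alignments lay between position 5142 and the furthest aligned base at 5638, and the stretch before held none. Uniquely mapped reads thus covered only the last aligned stretch of this contig. WIOZ01000114.1 followed at 259.3 CPM per kb, WIOZ01000157.1 at 203.7 and WIOZ01000156.1 at 176.9. The densest CM sequence stood at 9.82, which is a mean over 1364 kb and so not on the scale of these contigs. Among windows of 10 kb, the highest had 32645 CPM on the CM sequences and 5118 CPM on the WIOZ contigs.

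WIOZ01000157.1, the contig with most alignments (88922, 6359 CPM), was divided by strand. From 1 to 6000 all 10 transcribed tiles were led by the minus strand, with 23366 alignments of which 0.702% came from the plus strand. From 10501 to 17500 and from 22001 to 31500 all 22 transcribed tiles were led by the plus strand, with 53479 and 12068 alignments of which 99.9% and 99.2% did. The stretches were joined over at most 4 kb without a transcribed tile, and an alignment counted in the stretch of its 5' end. The spliced share was 0.342% (0.272% to 0.426%) at 1 to 6000, 2.40% (2.27% to 2.53%) at 10501 to 17500 and 0.240% (0.161% to 0.345%) at 22001 to 31500. A single gap from 16389 to 30470, with 962 alignments, nearly all plus, joined the last 2 of these stretches. Its plus-strand alignments counted only at 10501 to 17500, where 1281 were spliced, so the higher share there rests largely on this gap. Its tiles at 501 to 1000 (8082 alignments, minus strand) and 30001 to 30500 (5255 alignments, plus strand) were among the 10 leading tiles.

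On WIOZ01000127.1 and WIOZ01000126.1 the leading strand alternated. Tiles led by either strand occurred on other contigs too, since 13 contigs had at least 4 transcribed tiles led by each strand. That count does not regard their order. The 5' ends of all 48216 alignments of WIOZ01000127.1 lay in a stretch from 35501 onward, where 18 transcribed tiles were led by the plus strand and 15 by the minus strand. The strongest tiles were minus-led and lay in a run of 8 adjoining transcribed tiles at 45001 to 49000, with 28708 alignments of which 1.39% were plus and with 7 of the 8 led by the minus strand. A run of 10 tiles at 50001 to 55000 had 7 led by the plus strand and 3 by the minus strand, and 83.0% of its alignments were plus.

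WIOZ01000126.1 reached over 307.1 kb and joined stretches of opposite kinds. At 213501 to 226000 it had 28728 alignments, 96.1% of the contig, with 9 plus-led and 10 minus-led tiles and 11 spliced alignments (0.0383%). The rest of the contig had 1151 alignments, of which 25.9% (23.4% to 28.5%) were spliced, with 20 introns of a median length of 74.5 nt. A dense unspliced stretch and a weak spliced one thus stood on the same contig, and its overall spliced share of 1.03% describes neither. The rule that joins tiles into stretches was set after the profiles were seen.

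The other heavily read contigs were read from 1 strand. WIOZ01000156.1, WIOZ01000154.1 and WIOZ01000153.1 had 13, 13 and 29 transcribed tiles, all led by the plus strand. WIOZ01000155.1 had 15 of 16 led by the minus strand, and its minus share was 99.5% of 11062 alignments. On WIOZ01000154.1, 85.5% of 13342 alignments fell in the tile at 7001 to 7500, all of them from the plus strand. WIOZ01000155.1 and WIOZ01000153.1 were spread more evenly, with 22.8% and 14.9% of their alignments in their leading tiles.

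**Figure D3:**
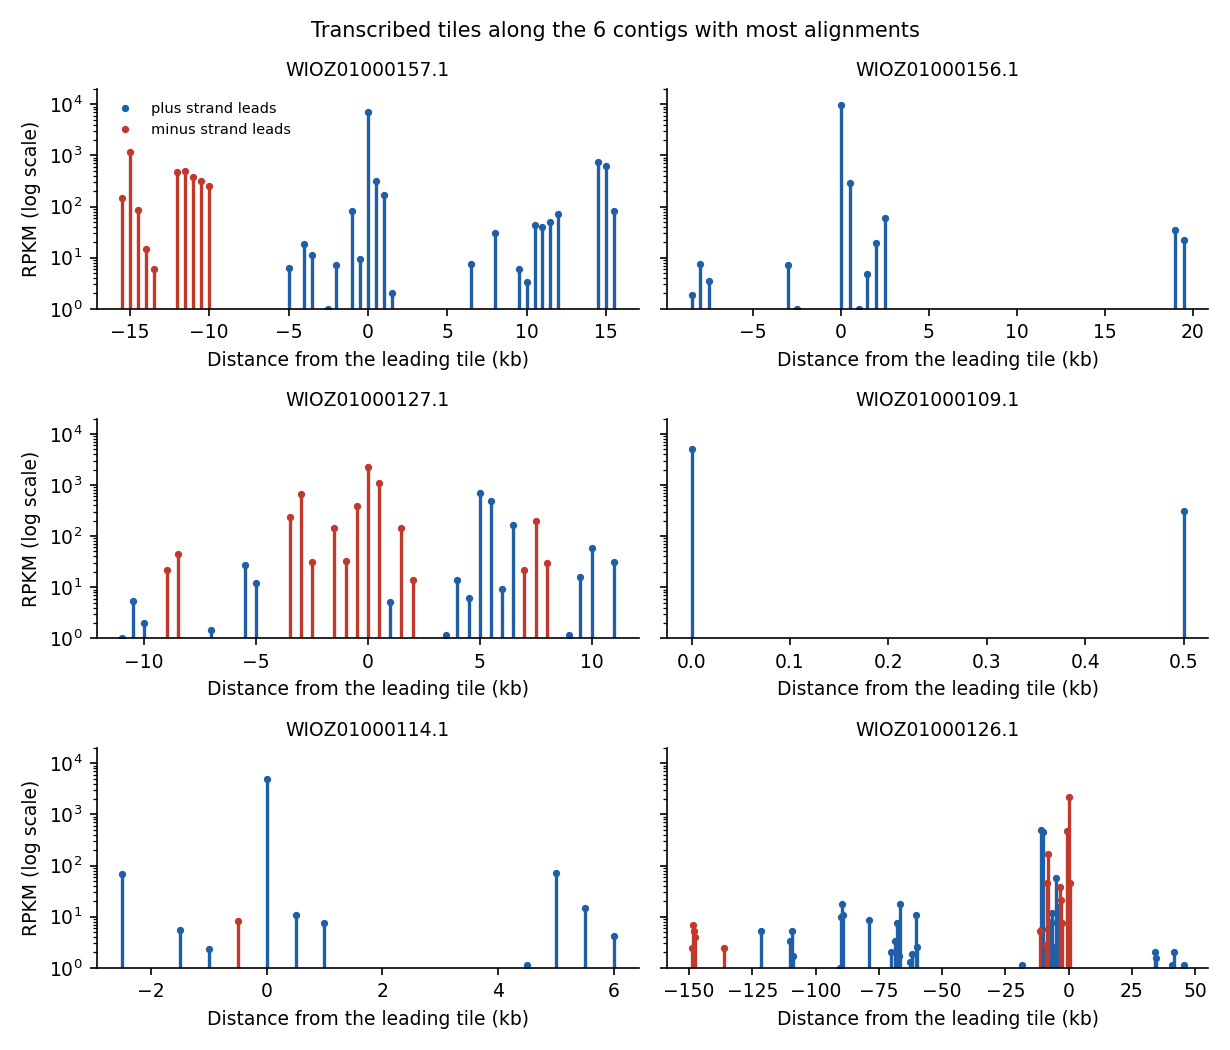
Level of each transcribed tile (RPKM, log scale) along the 6 WIOZ contigs with most alignments, by distance in kb from the leading tile of the contig, with tiles led by the plus strand in blue and by the minus strand in red. WIOZ01000157.1 changes from 10 minus-led tiles to 22 plus-led ones, WIOZ01000127.1 and WIOZ01000126.1 alternate, and WIOZ01000109.1 has 2 transcribed tiles only.

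Strand bias over all transcribed tiles was close to that of the chromosomes. A tile counted as single-stranded when 90% or more of it came from 1 strand, which held for 606 of 667 WIOZ tiles, 90.9% (88.4% to 92.9%), where 93.5% of the transcribed tiles of all sequences did. The CM share was 93.6%, with CM019041.1 lowest at 91.1%. With a stricter limit of 99% the order turned, at 78.6% (75.2% to 81.6%) of WIOZ tiles and 67.8% of CM tiles. Many WIOZ tiles had few alignments, in which 99% can only be met by 100%, and among tiles with at least 1000 alignments 76.1% (61.2% to 87.4%) of WIOZ tiles and 48.8% of CM tiles met it. Over all transcribed tiles the weaker strand held 0.823% of the WIOZ alignments and 1.86% of the CM alignments. The WIOZ value mainly reflects the heavily read contigs, with 0.752%, while the other 143 contigs had 1.55%. Contigs with fewer than 1000 alignments had 2.41%, above the CM value.

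Mixed tiles were mostly weak. The mixed WIOZ tile with most alignments was the one at 48001 to 48500 of WIOZ01000127.1, with 1026 alignments of which 84.6% were minus. Only 1 other mixed tile had over 100 alignments, that at 82001 to 82500 of WIOZ01000214.1 with 121. Among contigs with at least 10 transcribed tiles, the lowest share of tiles from 1 strand was on WIOZ01000190.1 with 5 of 10, followed by WIOZ01000021.1 with 8 of 14, WIOZ01000020.1 with 9 of 15, WIOZ01000022.1 with 8 of 12 and WIOZ01000047.1 with 7 of 10. These 5 contigs had 172 to 364 alignments each, so their intervals are wide, as from 18.7% to 81.3% on WIOZ01000190.1.

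An intron was counted as a gap of 40 to 20000 nt inside an alignment, seen in at least 3 alignments. Splice-site letters were not checked, since no genome sequence was used, so a gap is a gap in the alignment and a splice junction only by length and support. On 53 contigs 286 introns were found, with a median length of 335 nt (middle 50% 64 to 11188), against 28218 CM introns with a median of 73 nt (63 to 373). Short introns of 40 to 200 nt, the usual kind in *Drosophila*, made up 44.8% (38.9% to 50.7%) of the WIOZ introns and 69.2% of the CM introns. Introns over 10000 and up to 12000 nt made up 17.1% (13.0% to 22.0%) and 0.726%. Between these, 41 introns (14.3%) were longer than 200 and up to 2000 nt and 33 (11.5%) longer than 2000 and up to 10000 nt. The median depends on weakly supported introns, since among those with at least 10 alignments it was 79 nt on WIOZ contigs and 70 nt on CM sequences.

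Introns over 10000 and up to 12000 nt belonged largely to the 5 heavily read contigs WIOZ01000153.1, WIOZ01000154.1, WIOZ01000155.1, WIOZ01000156.1 and WIOZ01000157.1. They had 78 introns with a median of 11524 nt, and 41 of the 78 were over 10000 and up to 12000 nt long. The class of 40 to 200 nt held 0 of the 78, which allows a share of up to 3.85%. The other 147 contigs had 208 introns with a median of 83 nt (60 to 868.75), of which 61.5% (54.6% to 68.2%) were 40 to 200 nt long. Their median was near that of the chromosomes, but their long introns remained more frequent, at 3.85% (1.67% to 7.44%) over 10000 and up to 12000 nt and at 5.29% (2.67% to 9.27%) beyond, against 0.726% and 1.59% on CM sequences. The 5 contigs were singled out after their intron lengths were seen.

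**Figure D4:**
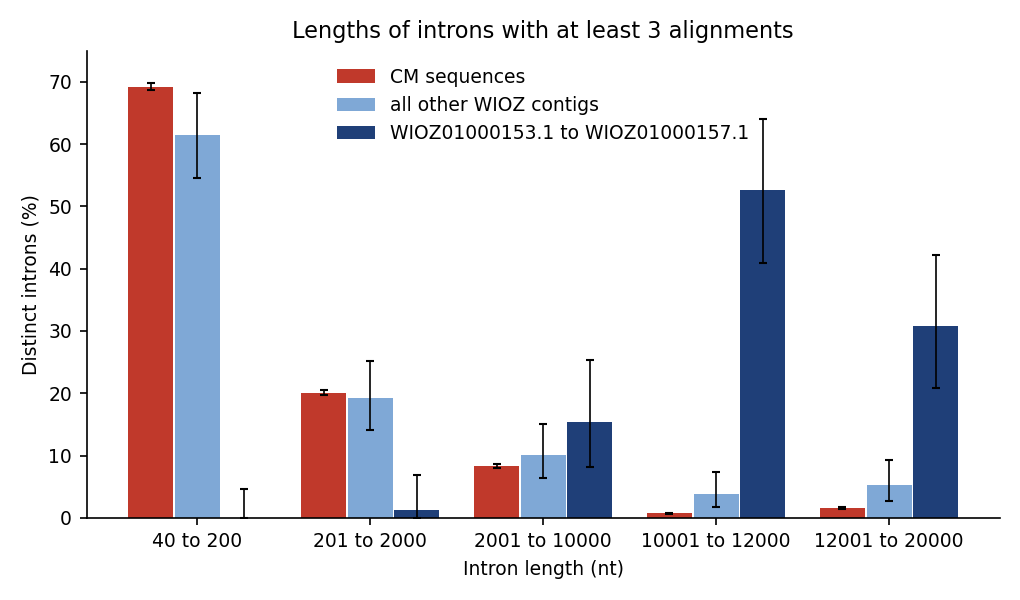
Share of distinct introns (percent) in 5 length classes (nt), for the CM sequences (red), all other WIOZ contigs (light blue) and the contigs WIOZ01000153.1 to WIOZ01000157.1 (dark blue), with exact 95% intervals of counting error. The 5 contigs had 52.6% of their introns in the class between 10000 and 12000 nt, where the CM sequences had 0.726%.

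The 5 introns with most alignments came from both kinds of contig. The first was 105 nt long on WIOZ01000214.1, from 83635 to 83739, with 985 alignments. The second was 14082 nt long on WIOZ01000157.1, from 16389 to 30470, with 962 alignments of 962 pairs, 169 distinct alignments, and 20 nt or more on the shorter side in 956 of them. The third was 3099 nt long on WIOZ01000132.1, from 2695 to 5793, with 601 alignments, all from the minus strand. The fourth was 1149 nt long on WIOZ01000214.1, from 82355 to 83503, with 423 alignments, and the fifth was 11257 nt long on WIOZ01000153.1, from 5067 to 16323, with 241. These junctions were supported by many differently placed alignments, at least 86 each, so none rests on copies of a single fragment.

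The 5 longest introns up to 20000 nt with at least 10 alignments were 19223 nt on WIOZ01000153.1 (26 alignments), 18847 nt on WIOZ01000126.1 (12), 17520 nt on WIOZ01000009.1 (28), 15910 nt on WIOZ01000214.1 (36) and 15186 nt on WIOZ01000157.1 (28). The longest was the least securely placed, because no alignment had more than 9 nt on its shorter side, against 56 to 73 nt for the other 4.

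On WIOZ01000153.1 and WIOZ01000157.1 separate long gaps had nearly the same length. All gaps of 2000 to 20000 nt on the 5 contigs were listed, including those in fewer than 3 alignments, and gaps with both ends within 20 nt of a better supported one were joined to it by a rule set after the gaps were seen, which left 194 of 223. Of these, 80 (41.2%, 34.2% to 48.5%) were within 20 nt in length of another gap on the same contig that began at least 100 nt away, while 2 of 100 on all other WIOZ contigs were. The shared lengths were on WIOZ01000153.1, with 36 of 62 gaps, and on WIOZ01000157.1, with 44 of 99, and there were 0 among the 33 gaps of the other 3 contigs. These 2 contigs carry more gaps, which alone brings lengths closer, and no expected share was computed. On WIOZ01000157.1, 15 gaps of 11601 to 11610 nt began between 10880 and 16329, with 84 alignments together. On WIOZ01000153.1 a gap of 11257 nt began at 5067 with 241 alignments, at 7073 with 5 and at 7820 with 3. Lengths over 10000 and up to 12000 nt made up 25 of the 62 joined gaps on WIOZ01000153.1 and 43 of the 99 on WIOZ01000157.1.

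**Figure D5:**
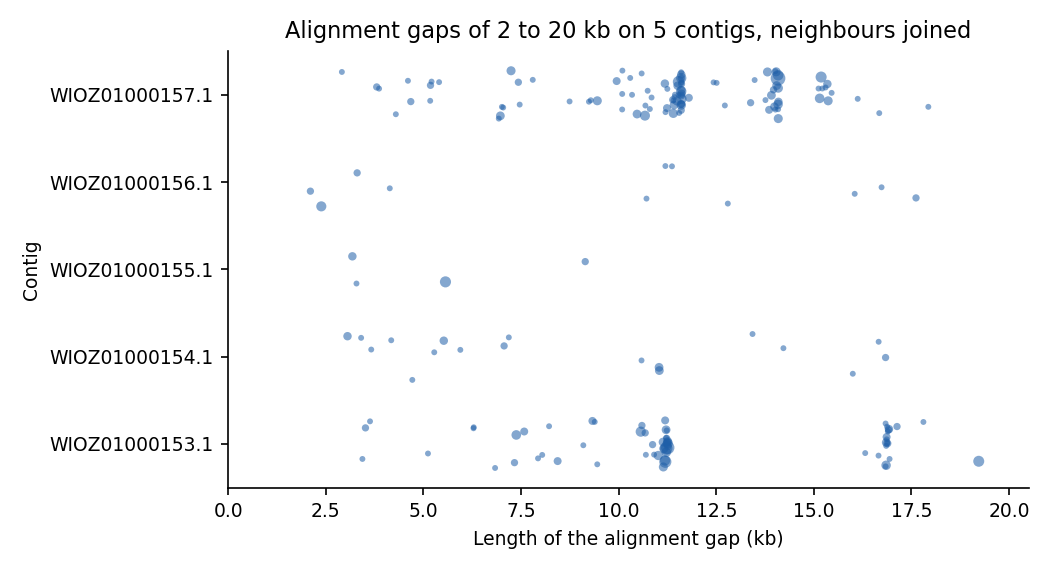
Length in kb of the alignment gaps of 2 to 20 kb on 5 heavily read contigs, 1 point per gap after gaps with both ends within 20 nt were joined, larger where more alignments cross it, and spread at random in height within its contig. Gaps crowd near 11.3 kb on WIOZ01000153.1 and near 11.6 kb and 14.1 kb on WIOZ01000157.1, and the other 3 contigs have fewer gaps.

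Read pairs showed long jumps that the spliced share does not count. A pair whose ends lay at least 2000 nt apart was called wide. On WIOZ contigs 10213 of 193688 pairs, 5.27% (5.17% to 5.37%), were wide, against 2.01% on the CM sequences, whose highest value was 2.71%. Of the wide pairs 71.2% (70.3% to 72.0%) on WIOZ contigs and 11.2% on CM sequences, where the 5 values ran from 7.77% to 13.3%, had no gap in either mate, so that the jump fell between the mates. The wide pairs came mainly from WIOZ01000157.1 with 4282 and WIOZ01000153.1 with 3768. On WIOZ01000153.1 they made up 68.3% (67.1% to 69.5%) of 5515 pairs, the median pair reached over 11397 nt, and 1937 pairs reached over 10000 to 12000 nt. Only 5.70% of the alignments of this contig were spliced. On WIOZ contigs other than the 5, 1.49% of pairs were wide, of which 21.2% had no gap. The origin of the jumps was not tested.

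Other contigs with at least 1000 alignments were spliced more often. WIOZ01000214.1, with 6982 alignments over 109.8 kb, had 17 introns with a median of 105 nt, and 9 of its transcribed tiles were led by the plus strand and 14 by the minus strand. Its strongest stretch, 81501 to 86000, was a run of 9 transcribed tiles with 2984 alignments, of which 54.9% (53.1% to 56.7%) were spliced. Its leading tile at 83501 to 84000 had 1524 spliced of 1986 alignments.

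WIOZ01000212.1 had 19 transcribed tiles, all led by the plus strand, and 13 introns with a median of 77 nt. A run of 13 adjoining tiles at 6001 to 12500 held 1564 alignments, 98.2% plus and 25.8% spliced, and no tile had more than 239 alignments. WIOZ01000182.1 had 1041 alignments, 4 plus-led and 4 minus-led tiles, and 8 introns with a median of 60.5 nt. WIOZ01000149.1 had 2977 alignments over 152.6 kb, and 56.2% of them lay at 22001 to 23000, where 21.8% were spliced. Its 5 other introns ran up to 13025 nt. WIOZ01000132.1 had 5763 alignments, 98.7% of them between 1501 and 6000 on the minus strand, where 605 of the 627 alignments of the tile at 5501 to 6000 were spliced and 0 of the 1927 at 2001 to 2500.

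Some weakly read contigs were spliced more often than any CM sequence. On WIOZ01000076.1, 185 of 202 alignments (91.6%) were spliced across 2 introns of 65 nt and 129 nt, and its alignments gave 1 transcribed tile. On WIOZ01000015.1, 249 of 424 (58.7%) were, and on WIOZ01000048.1 87 of 182 (47.8%). These 3 were named after their values were seen, for the largest spliced shares among contigs with at least 20 alignments.

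Runs of adjoining transcribed tiles were shorter on WIOZ contigs. The tiles formed 330 runs with a median of 1 tile and a maximum of 16, 195 of them single tiles, and 23 of them (6.97%) had at least 5 tiles. On CM sequences 11797 runs had a median of 2 tiles and a maximum of 74, and 3299 had at least 5. The longest WIOZ run was at 1 to 8000 of WIOZ01000103.1, with 16 tiles and 850 alignments, of which 17.6% were spliced, and with 8 tiles led by each strand. The next were WIOZ01000106.1 at 501 to 8000 with 15 tiles, WIOZ01000155.1 at 6501 to 13000 and WIOZ01000212.1 at 6001 to 12500 with 13 tiles each, and WIOZ01000211.1 at 9001 to 15000 with 12. Of these 5 runs, 4 had 17.6% to 25.8% spliced alignments, and that on WIOZ01000155.1 had 8546 alignments and 0.433%. Long runs with almost no splicing followed on WIOZ01000127.1, where the run at 50001 to 55000 had 11415 alignments and 0.0350% spliced.

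Repeated identical alignments were more frequent on WIOZ contigs. Distinct alignments made up 18.9% of the WIOZ alignments and 39.7% of the CM alignments. The share was 16.1% on the heavily read contigs and 45.2% on the others. At high read numbers fewer distinct positions are left, and the median share of distinct alignments in tiles with at least 5000 alignments was 13.5% on WIOZ contigs and 19.5% on CM sequences. With identical alignments counted once, the WIOZ share of the library was 1.34% and the spliced share was 5.31% against 16.2% on the CM sequences.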

How the data were processed

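Per the methods and labels, the authors trimmed adapters and filtered reads by quality with the FASTX-Toolkit, mapped the pairs with STAR 2.7.3a (up to 3 mismatches) to UCBerk_Dbif_1.0 and kept genome-unique mappers. SAMtools 1.10 and bedtools 2.28.0 are named in the submitters' processing notes. The library was made with a directional kit and sequenced in pairs. The deposited list has 1 line per aligned mate, and its score column was 255 in every line and was not used as a level. Lines were counted with pandas 2.3.3, numpy 2.4.6 and scipy 1.17.1 under Python 3.11.15, so a pair counted as 2, and strand is as the file gives it. Contig lengths were not used here, so each sequence was tiled up to its furthest aligned base, and a contig without alignments could not enter. Shares carry exact Clopper-Pearson intervals and levels exact Poisson intervals. With 1 library there was no test. The counting was checked on simulated alignments. The contigs, limits and comparisons were chosen with earlier results of these data known. The regions named in the text are the 10 contigs with most alignments, the extremes of spliced and single-strand share, the 10 leading tiles, the leading and longest introns and the longest runs, and regions named for other reasons are marked as chosen after their values were seen. The other 3 libraries of the series were not used here.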

Additional observations from a re-analysis of the deposited data

How the results depend on the processing

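The WIOZ contigs had a lower transcribed share and a lower spliced share than the CM sequences under every setting tried. The transcribed share (4.92%) became 7.84% above 0.5 RPKM and 3.41% above 2 RPKM. The single-strand share (90.9%) became 78.6% at a limit of 99% and 94.8% in tiles with at least 20 alignments, where the CM shares were 67.8% and 94.7%, so the order of both kinds of sequence turned at the stricter limit. With identical alignments counted once, the transcribed share was 6.21%, the spliced share 5.31% and the share of the library 1.34%. The spliced share (2.30%) was 3.30% when each pair counted once. Without the contig with most alignments, WIOZ01000157.1, the spliced share was 2.51% and the share of the library 2.15%. The median intron length (335 nt) was 79 nt among introns with at least 10 alignments and 1054 nt without a length limit. With many taken as at least 100 alignments, 5 contigs had no spliced alignment, and 0 at 1000. The remaining settings were added after the data were seen. Without the 9 contigs with at least 10000 alignments, the transcribed share was 3.75%, the spliced share 17.0% and the share of the library 0.276%. That spliced share lay within the range of the single CM sequences, 16.4% to 21.4%. Without WIOZ01000153.1 to WIOZ01000157.1 the median intron length was 83 nt. Joining introns with both ends within 20 nt left 271 with a median of 294 nt. Counting only gaps of at least 40 nt as spliced gave 2.29%. No paired analysis was possible because the library has no replicate. Depth limits the weak contigs most, since a tile needs 7 alignments to count and a contig with 26 alignments and no spliced one still allows a share of up to 11.5% by the limit of 3 counts.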

Other observations

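Very short alignments gathered on some weakly read contigs. Over all WIOZ contigs 0.634% of the alignments had under 35 aligned nt, against 0.735% on the CM sequences. Among the 86 contigs with at least 20 alignments, 15 had more than 50% of such short alignments. These 15 held 996 alignments together and at most 172 each, so they touch the counts of weak contigs and of mixed tiles, and their part in those counts was not tested. WIOZ01000190.1 and WIOZ01000158.1, with no spliced alignment, had median aligned lengths of 29 nt and 28 nt.

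WIOZ01000119.1 is the WIOZ contig on which the study lists an intact copy of a *gypsy* retrotransposon with an *env* gene. It had 46 alignments over 97.7 kb, 0.0337 CPM per kb (0.0247 to 0.0449), 1 transcribed tile and 0 spliced alignments, which allows a share of up to 6.52% by the limit of 3 counts. Of its alignments 56.5% had under 35 aligned nt. Uniquely mapped reads leave out those that fit several copies of such an element, so this is no measure of its expression.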
